A study of Mesocricetus auratus with 14 samples.

Results

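The golden hamster liver libraries held counts for 37 features of the mitochondrial genome, taken as every entry of the deposited count table whose chromosome was MT, out of 22283 genes in all. The study compared liver RNA of golden hamsters (Mesocricetus auratus) between 7 samples labelled control (replicates 1 to 7) and 7 whose label names treatment with DC371739, a compound (replicates 1 to 7). All 14 samples carry the label of a high-fat diet, so the controls shared that diet with the treated samples. Age, sex, strain, dose, route and length of treatment, and the time of collection, are not stated in the labels, and neither is whether each sample is 1 animal, so p-values speak only to the spread among the libraries, which may be technical. The mRNA design, with libraries prepared from total RNA, counts sequenced fragments per annotated gene, and fewer cells of a type and less RNA per cell, or fewer mitochondria and less RNA in each, cannot be told apart in bulk tissue.

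The mitochondrial genome is a small circular DNA that encodes core subunits of the respiratory chain complexes I, III and IV and of the ATP synthase (complex V), with the ribosomal RNAs and transfer RNAs (tRNAs) needed to translate them. Both strands are transcribed as long precursors, which are cut mostly at the tRNAs that lie between the genes, so that transcripts made from 1 precursor can still differ in level through their stability. In mammals ATP8 and ATP6 share 1 mature mRNA with overlapping reading frames, as do ND4L and ND4, and ND6 is the protein-coding gene of the opposite strand. Liver is rich in mitochondria, and these mRNAs are among its most abundant transcripts.

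The 37 features carry no gene symbol in the deposited tables. By start, end and length, 13 of them matched the 13 mitochondrial protein-coding genes of the RefSeq annotation (BCM_Maur_2.0) base for base, and those names are used here with the coordinates of the deposited table. These were, for complex I, ND1 (MT 2739 to 3693), ND2 (3902 to 4934), ND3 (9442 to 9789), ND4L (9860 to 10156), ND4 (10150 to 11527), ND5 (11723 to 13543) and ND6 (13527 to 14051, minus strand). The complex III gene was CYTB (14125 to 15265), the complex IV genes were COX1 (5310 to 6854), COX2 (6997 to 7680) and COX3 (8589 to 9372), and the ATP synthase genes were ATP8 (7748 to 7951) and ATP6 (7909 to 8589). Apart from ND6 all 13 lie on the plus strand. Of the 24 features without a name, 2 were long, 955 bases at 72 to 1026 and 1562 bases at 1101 to 2662, where mammalian mitochondrial genomes carry the small and the large ribosomal RNA. The other 22 were 58 to 75 bases long and lay between the genes, where mammals carry tRNAs. Since no name is given for them, the features are called here by length and position.

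Of the 37 features, 23 passed the filter on low counts and were tested: all 13 protein-coding genes, both long unnamed features and 8 of the 22 short ones. The 14 short features that did not pass held at most 129 counts over all 14 libraries, except for 1 at 11653 to 11722 with 149.

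Total gene counts per library ran from 13672589 to 23948628. There was a gap in depth: 11 libraries (5 control and 6 DC371739) held 13672589 to 16710097 counts, and 3 held 22152239 to 23948628, namely control replicates 6 and 7 and DC371739 replicate 7. The 3 are called the deeper libraries here and the other 11 the shallower ones; the labels give no batch or date, so this is a split by count alone. Of 15 hepatocyte markers 13 were measured, among them Alb, none at 0 in any library. These summed to 123885 to 164633 CPM (counts scaled to 1000000 per library). Between the treatment groups over all 14 libraries edgeR called none of the 13, where 1.85% of all genes tested were called. Of the 13, 2 had an unadjusted p under 0.05, where 20.4% of all genes tested did.

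Between 7.23% and 14.4% of all gene counts fell on the mitochondrial genome. In the control libraries the lowest, median and highest shares were 7.23%, 8.07% and 13.2%, and with DC371739 they were 7.71%, 8.29% and 14.4%. The group means were 9.36% ± 2.51 and 9.07% ± 2.38 (SD, n = 7 each), a difference of -0.29 percentage points that lay well within the spread of either group. The 95% binomial confidence interval (Wilson) of a library's share was at most ± 0.0144 percentage points, which covers counting error only. The 3 deeper libraries stood above all others, with 12.6% in control replicate 6, 13.2% in control replicate 7 and 14.4% in DC371739 replicate 7. The 11 shallower libraries ran from 7.23% to 9.33%, and among them the control mean was 7.95% ± 0.837 (SD, n = 5) and the DC371739 mean 8.17% ± 0.327 (SD, n = 6). As a share of the total less Alb, the largest nuclear gene, the deeper libraries held 14.1% to 15.9% and the shallower ones 8.11% to 10.3%. The deeper libraries were also the larger ones without any mitochondrial count, with 19368489 to 20493850 nuclear counts against 12569814 to 15417194.

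**Figure D1:**
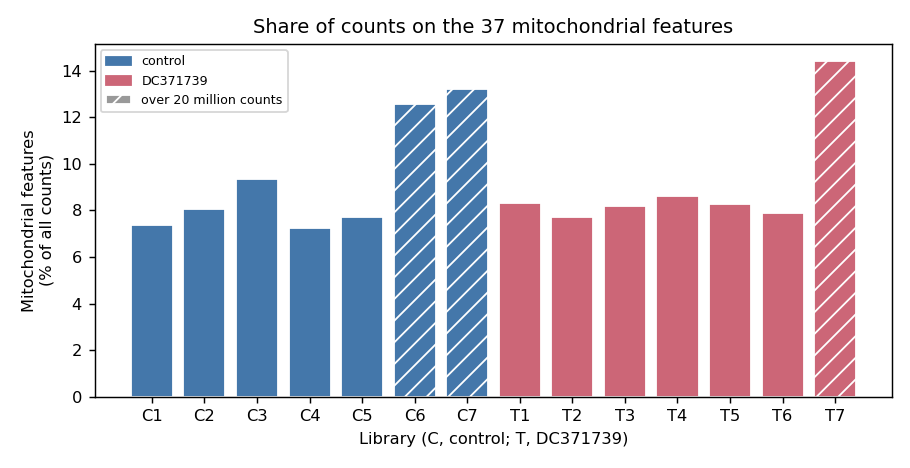
Mitochondrial share of all gene counts (percent, vertical axis) as a bar for each of the 14 libraries (C1 to C7 control, T1 to T7 DC371739), with the 3 libraries over 20000000 counts hatched. The 3 deeper libraries sit at 12.6% to 14.4%, above the 7.23% to 9.33% of the shallower ones, and the 2 treatment groups overlap.

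The 13 protein-coding genes held 98.4% to 99.2% of the mitochondrial counts. COX1, the catalytic core of cytochrome c oxidase, made up 32.0% of them on average and ranked between 2 and 4 among all genes of the table in every library. ND2, an inner-membrane subunit of complex I, followed with 11.98%, the proton-channel subunit ATP6 with 10.5% and COX3 with 8.74%. Together these 4 genes held 60.9% to 66.1% of the mitochondrial counts. The smallest shares among the 13 were those of ND3 (0.923%), ND4L (0.768%) and ATP8 (0.496%), which are also the shortest of them, at 348, 297 and 204 bases.

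Levels between genes were compared as CPM per kilobase of feature length. COX1 was highest, at 19434 CPM per kilobase on average, followed by ATP6 at 14245; each was above the next gene in all 14 libraries. ND2 (10446) and COX3 (10357) did not keep a fixed order, with ND2 above COX3 in 10 of 14 libraries. ND1 (7986), COX2 (7173), CYTB (5341) and ND4 (4235) came next, with ND1 above COX2 in 13 libraries and the other steps kept in all 14. Below them ND6 (3121), ND5 (2918), ND4L (2516) and ND3 (2312) lay close together, and their order differed between libraries: ND6 was above ND5 in 10, ND5 above ND4L in 12 and ND4L above ND3 in 6 of 14. ATP8 was the lowest of the 13 in its mean, at 2102 CPM per kilobase. The long unnamed features were far below every protein-coding gene, at 555 CPM per kilobase for the 1562-base and 90.1 for the 955-base feature. Whether the libraries were selected for poly(A) RNA or cleared of ribosomal RNA is not stated in the labels, and its part in these low levels was not tested.

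**Figure D2:**
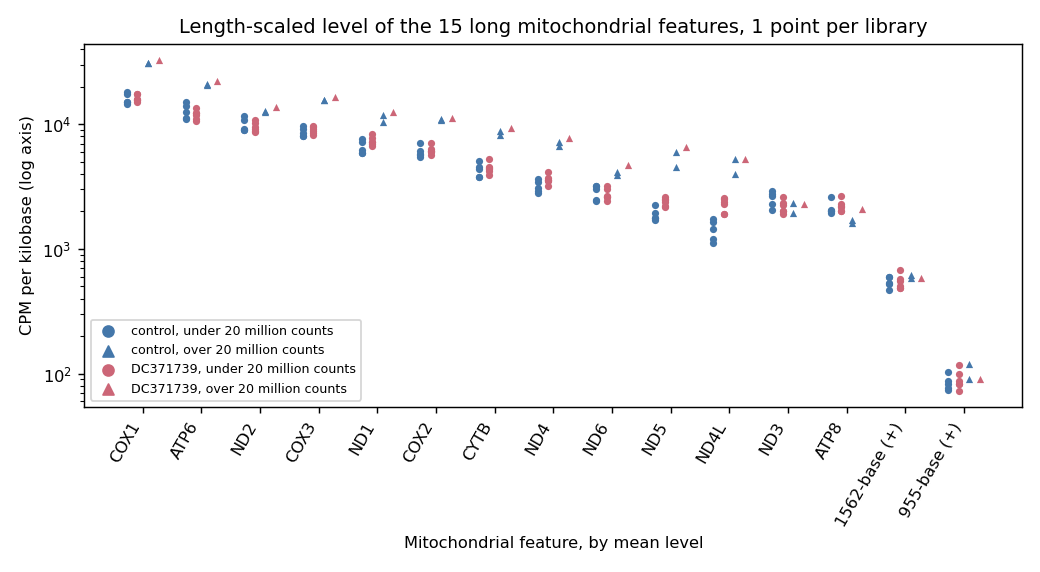
Level of each of the 13 protein-coding and 2 long unnamed mitochondrial features in each library, as CPM per kilobase on a log axis, 1 point per library, ordered by mean, with control in blue, DC371739 in red and the deeper libraries as triangles. COX1 and ATP6 lead in all 14 libraries, the 2 long unnamed features lie lowest, and the deeper libraries sit above the others for most genes but not for ATP8, ND3 or the long unnamed features.

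Over all 14 libraries no mitochondrial feature passed the test for a difference between DC371739 and control. Of the 23 tested, 0 were called by edgeR's quasi-likelihood test at an adjusted p under 0.05, where 1.85% of all 12166 genes tested were called. Only 1 of the 23 had an unadjusted p under 0.05 (20.4% of all genes), DESeq2 called 0 (6.9% of all genes), and limma-voom with sample weights called 3 where it called 22.4% of all genes: ND4L and the short features at 5072 to 5142 and at 6856 to 6924. The median log2 difference over the 23 was -0.0085, against -0.02 over all genes tested. The DC371739 and control libraries overlapped for every one of the 23 features, where 0.699% of all genes tested did not overlap.

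The complex IV genes show how the spread within groups compared with the difference. COX1 stood at 22579, 26853 and 48156 CPM (lowest, median and highest) in the 7 control libraries and at 23152, 24482 and 50218 with DC371739. The 2 ranges lay almost on top of each other, and the highest values of both were those of the deeper libraries. Its log2 difference was -0.14 (SE 0.22, edgeR adjusted p = 0.773). COX2, which carries the electron entry site of the enzyme, and COX3 differed by -0.10 and -0.081 on the same scale, with edgeR adjusted p of 0.817 and 0.854. CYTB, the mitochondrially encoded subunit of complex III, differed by -0.099 (edgeR adjusted p = 0.851). The ATP synthase genes gave -0.17 for ATP6 and 0.15 for ATP8, with edgeR adjusted p of 0.648 and 0.439.

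Among the complex I genes the log2 differences were 0.047 for ND1, -0.076 for ND2, -0.14 for ND3, -0.015 for ND4, 0.066 for ND5 and -0.075 for ND6. ND4L, a small membrane subunit, had the largest difference of the 13 at 0.20 (SE 0.35, edgeR adjusted p = 0.789). The long unnamed features at the ribosomal RNA positions differed by -0.0085 (955 bases, edgeR adjusted p = 0.980) and -0.022 (1562 bases, adjusted p = 0.923). The largest difference of all belonged to short features of the minus strand: the 71-base feature at 5072 to 5142 gave 0.80 (edgeR adjusted p = 0.119) and the 69-base feature at 6856 to 6924 gave 1.13 (adjusted p = 0.248). Without control replicate 7, a deeper library, the 71-base feature alone was called, at a log2 difference of 1.003 and an edgeR adjusted p of 0.0417. In that fit 542 of all 12234 genes tested were called.

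**Figure D3:**
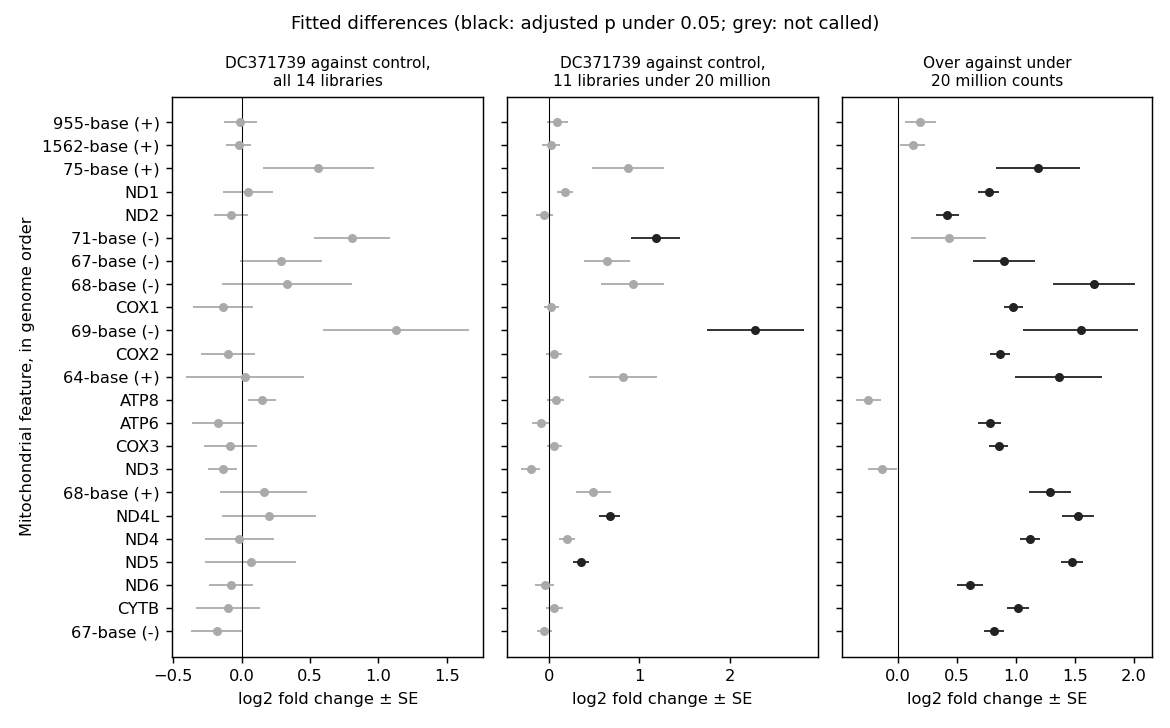
Log2 differences of the 23 tested mitochondrial features in genome order (points are edgeR estimates, bars 1 SE, black where called), for DC371739 against control over all 14 libraries (left) and over the 11 shallower libraries (middle), and for the deeper against the shallower libraries (right). None is called on the left, 4 in the middle (ND4L, ND5 and short features of 71 and 69 bases) and 18 on the right, where ATP8, ND3 and the long unnamed features are among the 5 that are not.

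Since the deeper libraries spread both groups, the treatment was also fitted with library class as a term. Then 4 of 23 features were called, all higher with DC371739: ND4L, ND5 and the short features at 5072 to 5142 and at 6856 to 6924. This is 17.4% of the 23, where 12.3% of all genes tested were called in that fit and 5.62% called higher. Among the 11 shallower libraries alone, the edgeR test called the same 4 features, again 17.4%, where 21.5% of the 12249 genes tested were called and 11% called higher. The feature at 6856 to 6924 reached the level that the filter on low counts asks for (0.609 CPM before TMM scaling) in 0 of the 5 control and 5 of the 6 DC371739 libraries there, so it was tested only through the group in which it was high, and its call carries no weight. It reached that level (0.608 CPM over all 14 libraries) in 2 of 7 control and 6 of 7 DC371739 libraries, both of the controls being deeper ones. Of the 19 features that reached the level in all 14 libraries, 3 were called (15.8%) in each of these fits, ND4L, ND5 and the feature at 5072 to 5142. The share of mitochondrial features called was thus near that of all genes called in either direction in both fits. All of these calls were higher with DC371739, and their share was above the 5.62% (class term) and 11% (shallower libraries) of all genes called higher. The calls describe these few features rather than the genome's transcripts as a whole: the median log2 difference over the 23 was 0.12 with the class term and 0.09 in the shallower libraries. Leaving out 1 library gave 1 to 5 called features with the class term, the 1 without control replicate 5, and 3 to 5 in the shallower libraries, where the feature at 6856 to 6924 dropped out of the test without any 1 of DC371739 replicates 1 to 5. Between the shallower groups, 3 of 23 features (13%) did not overlap, against 9.38% of all genes tested: ND4L and the short features at 5072 to 5142 and at 9791 to 9858.

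ND4L was higher with DC371739 in the shallower libraries. Its level was 426, 333, 517, 487 and 359 CPM in control replicates 1 to 5, and in DC371739 replicates 1 to 6 it was 571, 570.2, 709, 758, 679.7 and 742 CPM. Every treated value was above every control value. The means were 424 ± 79.2 (SD, n = 5) and 672 ± 82.8 CPM (SD, n = 6), a 1.59-fold difference (log2 0.67, SE 0.12, edgeR adjusted p = 0.00289). With the class term over all 14 libraries the log2 difference was 0.57 (SE 0.12, edgeR adjusted p = 0.0105). The deeper libraries were higher than any of these, at 1187 and 1559 CPM in control replicates 6 and 7 and 1565 CPM in DC371739 replicate 7, so that the treated deeper library lay level with the higher of the deeper controls.

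ND5, the large proton-pumping subunit at the far end of the complex I membrane arm, differed in the same direction by less. Control replicates 1 to 5 stood at 3246, 3089, 4063, 3518 and 3241 CPM, and DC371739 replicates 1 to 6 at 4313, 3932, 4022, 4594, 4472 and 4768 CPM. The groups overlapped through control replicate 3, which was above the lowest treated values. The difference was 1.27-fold in the shallower libraries (log2 0.35, SE 0.09, edgeR adjusted p = 0.0132) and 1.26-fold with the class term (log2 0.34, SE 0.08, adjusted p = 0.0195). Without control replicate 5 the call with the class term was lost, at an edgeR adjusted p of 0.0519. The deeper libraries held 8276, 10917 and 11948 CPM in control replicates 6 and 7 and DC371739 replicate 7.

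**Figure D4:**
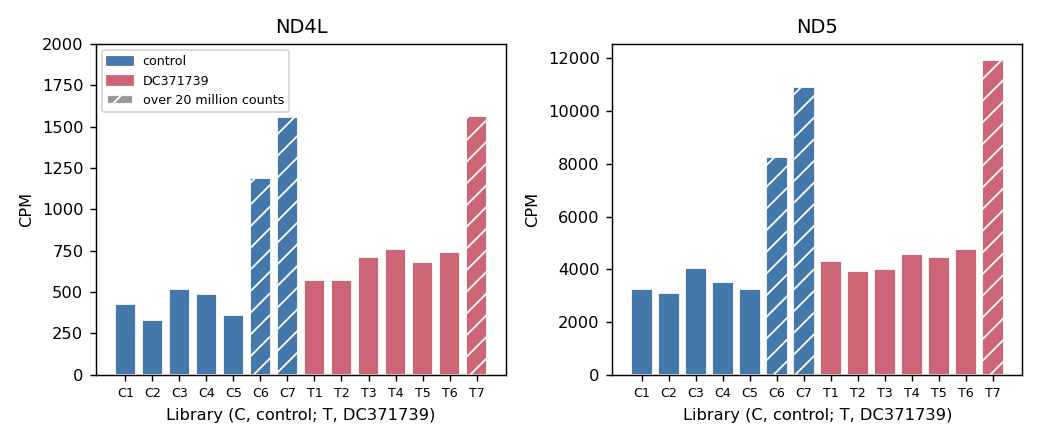
Levels of ND4L and ND5 (CPM, vertical axes) as a bar for each library (C1 to C7 control, T1 to T7 DC371739), with the 3 deeper libraries hatched. Among the shallower libraries all 6 treated values of ND4L lie above the 5 control values, while those of ND5 overlap, and the deeper libraries lie above both groups for both genes.

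The other complex I genes were not called in the shallower libraries. ND1, which lies where the quinone enters the complex, differed by 0.17 (edgeR adjusted p = 0.178), and ND4, the neighbour that shares an mRNA with ND4L, by 0.19 (adjusted p = 0.131). ND3 differed the other way, by -0.20 (edgeR adjusted p = 0.178), with 882 ± 125 CPM in control (SD, n = 5) and 762 ± 93.4 CPM with DC371739 (SD, n = 6). For COX1, ATP6 and ATP8 the log2 differences were 0.022, -0.095 and 0.072, with edgeR adjusted p of 0.519 to 0.877. Relative to the summed mitochondrial counts, which cancels the amount of mitochondrial RNA in a library, ND4L and ND5 were still called in the shallower libraries, at log2 differences of 0.61 and 0.30 (edgeR adjusted p = 0.00673 and 0.0390). In that fit 4 of 23 features were called, 17.4%, or 3 of the 19 that reached the filter level throughout, where 14.2% of all genes were. Over all 14 libraries with the class term and this scaling, 3 of 23 were called (13%, against 11.7% of all genes): ND4L at 0.51, ND5 at 0.28 and the short feature at 6856 to 6924 at 1.57. The last is not among the 19 that reached the filter level throughout, and of those 2 were called (10.5%).

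The shares of the mitochondrial counts show the same shift. ND4L held 0.548% ± 0.109 of them in the shallower control libraries and 0.839% ± 0.105 with DC371739, and ND5 held 4.42% ± 0.453 and 5.43% ± 0.404 (SD, n = 5 and 6). ND4 held 5.48% to 5.73% in the shallower controls and 5.92% to 6.46% with DC371739. These ranges did not overlap, but those of its CPM did, and overlap of shares was not counted over all features. The 4 largest contributors, COX1, ND2, ATP6 and COX3, together held 64.8% ± 0.835 in control and 62.4% ± 0.231 with DC371739, and these ranges did not overlap either (63.9% to 66.1% against 62.1% to 62.8%). Singly, in the shallower libraries scaled to the summed mitochondrial counts, none of the 4 was called. Their log2 differences there were -0.026 (COX1), -0.099 (ND2), -0.14 (ATP6) and 0.0093 (COX3). These shares add up to a whole, so a higher share of some genes lowers that of others, and the shares themselves were not tested. In the fit of the shallower libraries scaled to the summed mitochondrial counts, ND4 was not called (log2 0.15, edgeR adjusted p = 0.178).

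Markers of other liver cells were read in the same fits. Of 18 macrophage markers 16 were measured, none of them at 0 in any library, and 3 rose with DC371739 over all 14 libraries (Laptm5, Ctss and Mpeg1), where edgeR called 1.24% of all genes higher, none fell, and their summed level was 878 to 1303 CPM in control and 986 to 1516 CPM with DC371739. In the shallower libraries, where edgeR called 11% of all genes higher, 6 of the 16 rose. With the class term 9 of the 16 rose and 0 fell, where 5.62% of all genes were called higher. In that fit 2 of the 10 endothelial, 1 of the 8 lymphocyte and 1 of the 13 hepatocyte markers rose, and 0 fell. Of the 10 endothelial markers, all measured and none at 0, 0 were called over all 14 libraries and 4 rose in the shallower ones, against the same 11% of all genes, with a summed level of 186 to 282 CPM in control and 226 to 309.8 CPM with DC371739. For the 8 lymphocyte markers measured of 13 listed, with 0 called over all 14 libraries and 1 risen in the shallower ones (Prf1, 0.95, edgeR adjusted p = 0.0403), the sums were 6.98 to 13.7 and 8.68 to 19.8 CPM. Of 9 erythroid markers only Alas2 was measured, at 7.20 to 32.6 CPM in all libraries and not called. Of the 13 hepatocyte markers 2 rose in the shallower libraries, Hnf4a (0.52, edgeR adjusted p = 0.00504) and Apob (0.36, 0.00647). The part of these cells in the ND4L and ND5 differences was not tested.

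Most of the mitochondrial mRNAs were higher in the deeper libraries. With treatment in the model, 18 of 23 features were higher in the deeper libraries and 0 lower (78.3%; 14 of the 19 that reached the filter level in every library, 73.7%), where 46.4% of all genes tested were called, 22.6% higher and 23.8% lower. The median log2 difference over the 23 was 0.86, against -0.0025 over all genes. All 3 deeper libraries lay above all 11 shallower ones for 14 of 23 features (60.9%), 11 of them protein-coding, where this held for 13.8% of all genes. Each class holds libraries of both groups, and the deeper class has 1 treated library only. In the same fit 7 of 10 endothelial markers were called (3 higher, 4 lower), 5 of 16 macrophage markers (3 higher, 2 lower), 4 of 13 hepatocyte markers (2 higher, 2 lower) and 0 of 8 lymphocyte markers, against the 46.4% of all genes. Their summed levels in the deeper libraries were 186 to 279, 949 to 1515, 138931 to 164633 and 7.73 to 15.7 CPM. In the shallower ones they were 212 to 309.8, 878 to 1516, 123885 to 155336 and 6.98 to 19.8 CPM, ranges that overlapped for each list. Their part in the class difference was not tested.

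ND4L and ND5 had the largest class differences of the 13 as well. ND5 was 2.78-fold higher in the deeper libraries (log2 1.47, SE 0.09, edgeR adjusted p = 5.47e-08) and ND4L 2.88-fold (log2 1.53, SE 0.14, adjusted p = 4.80e-07). ND4 followed at a log2 difference of 1.12 (edgeR adjusted p = 2.13e-07), then CYTB at 1.02 and COX1 at 0.98 (adjusted p = 6.70e-07 and 2.71e-07). COX1 was at 48156 and 48143 CPM in the deeper control replicates 6 and 7 and at 50218 CPM in DC371739 replicate 7, above the 22579 to 27841 CPM of the shallower libraries. COX2, COX3, ATP6 and ND1 were higher by 0.86, 0.85, 0.78 and 0.77 on the log2 scale, with edgeR adjusted p between 5.41e-07 and 1.24e-05. ND6 was higher by 0.61 (edgeR adjusted p = 1.92e-04) and ND2 by 0.42 (adjusted p = 0.00187).

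The 5 features that were not called were ATP8, ND3, both long unnamed ones and the short feature at 5072 to 5142. ATP8, a short membrane subunit of the ATP synthase, stood at 329, 349 and 429 CPM in the deeper libraries and at 394, 420.0 and 543 CPM (lowest, median and highest) in the shallower ones. The ranges overlapped through DC371739 replicate 7, with control replicates 6 and 7 below all others. Its log2 difference was -0.25 (SE 0.11, edgeR adjusted p = 0.0647), and it was called lower, at -0.34 and an adjusted p of 0.0454, without DC371739 replicate 7. ND3, also of complex I, was at 672, 814 and 794 CPM in the deeper libraries, within the 665 to 1022 CPM of the shallower ones (log2 -0.13, edgeR adjusted p = 0.400). The long unnamed features differed by 0.19 (955 bases, edgeR adjusted p = 0.246) and 0.13 (1562 bases, adjusted p = 0.332). The 1562-base feature was among the steadiest of all, with a highest value 1.44 times its lowest over the 14 libraries, where this was 2.22 times for COX1 and 4.70 times for ND4L.

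Scaled to the summed mitochondrial counts, the deeper libraries differed from the shallower ones in the makeup of the mitochondrial RNA too. On that scale 82.7% of all genes were called, 0.995% higher and 81.7% lower, with a median of -0.89 over all genes, and 9 of the 23 mitochondrial features were called. ND4L, ND5 and ND4 took larger parts of the total, by 0.64, 0.59 and 0.24 on the log2 scale (edgeR adjusted p = 6.44e-04, 2.63e-05 and 0.00682). ATP8 and ND3 took smaller parts, by -1.13 and -1.01 (edgeR adjusted p = 1.11e-08 and 5.41e-08), as did the long unnamed features (-0.68 and -0.75), ND2 (-0.46) and ND6 (-0.27). COX1, COX2, COX3, CYTB, ATP6 and ND1 were not called relative to the total. The long unnamed features together held 0.651% to 0.749% of the mitochondrial counts in the deeper and 0.944% to 1.39% in the shallower libraries. Between control (1.06% ± 0.223) and DC371739 (1.1005% ± 0.248; SD, n = 7 each) this share differed by less than the spread.

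A difference in the treatment effect between the classes was tested by an interaction term. The edgeR test called 0 of 23 features, where 0.0164% of all genes tested were called, and 1 of the 23 had an unadjusted p under 0.05, against 12.5% of all genes. For ND4L the interaction was -0.47 (SE 0.28, edgeR adjusted p = 0.505) and for ND5 -0.026 (SE 0.21, adjusted p = 0.973) on the log2 scale. With 1 treated library among the deeper ones, that estimate rests on DC371739 replicate 7.

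The pairs of genes that share an mRNA did not keep a fixed ratio. ATP8 and ATP6 overlap by 43 bases and ND4L and ND4 by 7. Per kilobase, ATP8 was 0.146 to 0.207 of the ATP6 level in the shallower libraries, and 0.0777, 0.0821 and 0.0947 of it in control replicates 6 and 7 and DC371739 replicate 7. The deeper libraries thus lay below all others. ND4L was 0.328 to 0.559 of the ND4 level in the shallower control libraries, 0.514 to 0.714 in the shallower DC371739 libraries, and 0.599, 0.725 and 0.679 in the deeper ones. Here the shallower control libraries were lowest, with an overlap between the treatment groups, and the deeper ones were all above the shallower controls. A read within the overlap may be assigned to either gene, to both or to none, and the sources used here do not say how the counting treated such reads. As a pair from distant parts of the genome, ND5 was 0.237 to 0.389 of the ND1 level in the shallower libraries and 0.437 to 0.519 in the deeper ones, again without overlap.

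**Figure D5:**
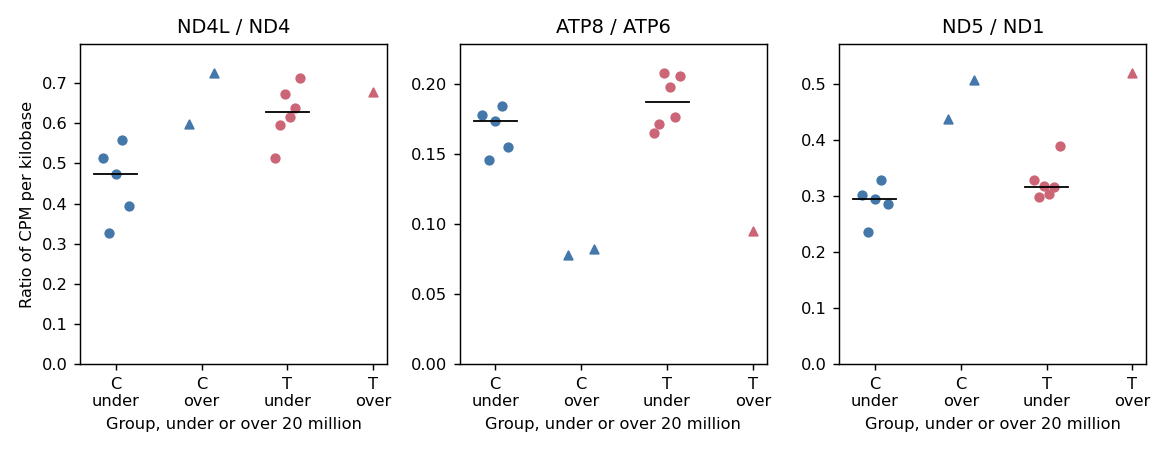
Ratios of ATP8 to ATP6, ND4L to ND4 and ND5 to ND1 (each as CPM per kilobase over CPM per kilobase) in each library, by group and by library class, with a line at the median of the shallower libraries of each group (C control, T DC371739; under and over 20000000 counts). The deeper libraries lie below all others for ATP8 to ATP6 and above them for ND5 to ND1, and for ND4L to ND4 the shallower control libraries are lowest.

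The 22 short features held 0.150% to 0.208% of the mitochondrial counts, and 1 of them held most of that. The 67-base feature at 15333 to 15399, on the minus strand and last before the end of the annotated features, had 1643 to 4831 counts per library and a level of 2098 CPM per kilobase, close to that of ATP8. Its neighbour on the plus strand, at 15266 to 15332, held 3 counts in all 14 libraries together, and the feature at 1 to 69 held 0 of 244977741 counts, which allows up to 0.0122 counts in 1000000 (3 counts). With DC371739 the 67-base feature differed by -0.18 (edgeR adjusted p = 0.630), and it was higher in the deeper libraries by 0.82 (adjusted p = 1.92e-06). Minus-strand features, chiefly ND6, took 1.67% to 2.32% of the mitochondrial counts. The sources used here give no strand setting for the counting, so reads of ND6 and of the minus-strand short features cannot be told apart from reads of the opposite strand.

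The short features called in the shallower libraries had low counts. The 71-base feature at 5072 to 5142 stood at 2.38, 0.763, 3.90, 3.12 and 3.15 CPM in control replicates 1 to 5 and at 6.50, 7.13, 6.78, 4.92, 6.67 and 4.50 CPM in DC371739 replicates 1 to 6, with no overlap between them (log2 1.18, SE 0.27, edgeR adjusted p = 0.00914). The deeper libraries lay among them, at 4.05, 5.87 and 4.58 CPM, and the class difference was not called (log2 0.43, edgeR adjusted p = 0.286). That difference was 0.12 without control replicate 7 and 0.89 without DC371739 replicate 7 (edgeR adjusted p = 0.808 and 0.0506). The 69-base feature at 6856 to 6924 held 0 to 29 counts per library, with 0 in control replicate 2, where 3 counts would be 0.229 CPM. Its levels were 0.406, 0, 0.180, 0.122 and 0.114 CPM in control replicates 1 to 5 and 1.16, 1.35, 0.804, 0.985, 0.649 and 0.237 CPM in DC371739 replicates 1 to 6, overlapping through control replicate 1 and DC371739 replicate 6. All 5 control values lay under the filter level, so the fitted difference of the shallower libraries (log2 2.28, SE 0.54) is given as a description only. The 68-base feature at 9791 to 9858, between ND3 and ND4L, did not overlap between the shallower groups but was not called (log2 0.49, edgeR adjusted p = 0.0840). With the class term the 2 called features lay close to the threshold, at edgeR adjusted p of 0.0398 and 0.0324. Leaving out 1 library lost the call of the 71-base feature for 10 of the 14, all but control replicates 2 and 7 and DC371739 replicates 4 and 7, with an edgeR adjusted p of up to 0.0802. For the 69-base feature the call was lost without any 1 of control replicates 2 to 5 and DC371739 replicates 2 and 3, with an edgeR adjusted p of up to 0.0759. The 67-base feature at 5174 to 5240 gave 0.64 in the shallower libraries (edgeR adjusted p = 0.0796). Higher in the deeper libraries were those at 2664 to 2738, 5174 to 5240, 5241 to 5308, 6856 to 6924, 7683 to 7746 and 9791 to 9858, by log2 differences of 0.90 to 1.66. Without control replicate 7 the calls at 2664 to 2738, 5174 to 5240 and 7683 to 7746 were lost (edgeR adjusted p = 0.0594, 0.101 and 0.0570), the one at 5174 to 5240 with a log2 difference of 0.60. Without control replicate 6 the call at 6856 to 6924 was lost (1.29, edgeR adjusted p = 0.0726), and without DC371739 replicate 7 its difference was 2.46.

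The nuclear genes that make and maintain mitochondrial transcripts were listed as 89 genes, all of them tested. Over all 14 libraries 0 of the 89 were called by edgeR, with 14 at an unadjusted p under 0.05 (20.4% of all genes), 8 called by DESeq2 (6.9% of all genes) and 18 by limma-voom (22.4% of all genes). Without control replicate 7 the edgeR count was 4, where 542 of all 12234 genes tested were called. Without DC371739 replicate 7 it was 9, where 1069 of all 12220 genes tested were called. Their median log2 difference was -0.09, against -0.02 over all genes, and 63 of 89 were negative. In the shallower libraries 6 of the 89 rose and 12 fell (20.2%, against 21.5% of all genes, 11% called higher and 10.5% called lower), so that the share called was near the background. Tfam and Polg, the packaging factor and the polymerase of the mitochondrial genome, carry no symbol in the deposited table and were not analysed here.

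By role, 4 of the 6 transcription genes fell in the shallower libraries, where 10.5% of all genes were called lower and 11% higher. These were the transcription termination factor family members Mterf2 (-0.40, edgeR adjusted p = 0.0295), Mterf3 (-0.43, 0.0194) and Mterf4 (-0.37, 0.0116), and the elongation factor Tefm (-0.30, 0.0276), each given as log2 difference and edgeR adjusted p. Mterf3 had 7.97 ± 0.737 CPM in the shallower controls (SD, n = 5) and 5.91 ± 0.732 CPM with DC371739 (SD, n = 6). The mitochondrial RNA polymerase Polrmt and its initiation partner Tfb2m were not called, at -0.17 and 0.22 (edgeR adjusted p = 0.177 and 0.0588). Over all 14 libraries Mterf2 gave -0.45 and Mterf3 -0.44, both just over the threshold (edgeR adjusted p = 0.0537 and 0.0512).

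Of 44 genes of RNA processing, modification and turnover 2 rose and 7 fell in the shallower libraries, 20.5% of them, near the 21.5% of all genes. Slirp, whose protein binds mitochondrial mRNAs together with Lrpprc, differed by -0.48 on the log2 scale (edgeR adjusted p = 0.00744), from 12.7 ± 1.03 to 9.09 ± 1.19 CPM. Lrpprc gave 0.047 (edgeR adjusted p = 0.623). Trmt10c, a subunit of the enzyme that cuts the 5′ ends of mitochondrial tRNAs, and Rpusd3, a pseudouridine synthase, also fell, with log2 differences of -0.41 and -0.41 (edgeR adjusted p = 0.00970 and 0.00861). Of 13 translation factors 1 fell (7.69%), the ribosomal release factor Mrpl58 (-0.45, edgeR adjusted p = 0.00953). Of 15 genes of mitochondrial DNA maintenance 2 rose (13.3%), among them the DNA ligase Lig3 (0.29, edgeR adjusted p = 0.0331), while the helicase Twnk gave 0.27 (adjusted p = 0.0767).

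Among 11 regulators of mitochondrial biogenesis, 2 rose and 0 fell in the shallower libraries, the coactivator Ppargc1a and the nuclear receptor Ppara. This was 18.2%, where 11% of all genes were called higher and 21.5% in either direction. Ppargc1a was 3.48, 4.50, 3.66, 2.08 and 3.38 CPM in control replicates 1 to 5 and 5.89, 12.96, 4.37, 9.97, 3.84 and 10.2 CPM in DC371739 replicates 1 to 6. The groups overlapped at their edge, and the log2 difference was 1.21 (SE 0.32, edgeR adjusted p = 0.0206). Over all 14 libraries it was 0.52 (adjusted p = 0.475), with 13.7 and 9.83 CPM in the deeper controls. Ppara gave 1.06 in the shallower libraries (edgeR adjusted p = 0.00402) and 0.75 over all 14 (adjusted p = 0.0734).

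Between the deeper and the shallower libraries 46 of the 89 nuclear genes were called (51.7%, against 46.4% of all genes). Of these 28 were higher and 18 lower in the deeper libraries, where 22.6% of all genes were called higher and 23.8% lower. Lrpprc, which keeps mitochondrial mRNAs stable, was at 171 and 183 CPM in the deeper controls and at 174 CPM in DC371739 replicate 7, above the 109 to 128 CPM of all shallower libraries (log2 0.60, edgeR adjusted p = 2.44e-06). Polrmt was lower in the deeper libraries (log2 -0.93, edgeR adjusted p = 2.29e-06), while Tfb2m and Ppargc1a were higher by 0.38 and 1.35 (adjusted p = 0.00271 and 0.00475). Slirp differed by -0.055 (adjusted p = 0.732).

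Most of the respiratory chain is encoded in the nucleus, and its proteins assemble with the 13 mitochondrial ones. Of 53 nuclear subunits of complexes I, III, IV and V, 22 fell and 0 rose in the shallower libraries, with a median log2 difference of -0.28. This was 41.5%, where 10.5% of all genes were called lower. With the class term 8 fell and 0 rose (15.1%). In that fit 815 of all 12166 genes tested were called lower, and 12.3% were called in either direction. Over all 14 libraries 0 were called by edgeR. There 28 of the 53 had an unadjusted p under 0.05, a larger share than the 20.4% of all genes. Of the 53, 50 were negative (94.3%), where 6491 of all 12166 genes tested were negative. No test of the difference between the nuclear and the mitochondrial subunits was made.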

How the data were processed

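Liver RNA of 7 control and 7 DC371739 samples was sequenced. The submitters' processing notes name HISAT2 2.2.1, edgeR without a version, and featureCounts 2.0.0. For genome build, strand setting and reads in more than 1 feature, nothing is given in the sources used here. TruSeq and NEBNext kits are both in the labels of every sample. Per the file headers, the count table holds whole-number counts per gene with its coordinates, strand and length, and it has no entry for unassigned reads. The authors also deposited a table of FPKM values for 10023 genes with a symbol, with their log2 fold change, p-value and adjusted p-value; 0 of the 37 mitochondrial features are in it, and it was used here for gene symbols alone. The members, lists and tests were chosen with earlier results of these data known.

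The fits used edgeR 4.0.16 (R 4.3.3) with TMM scaling, default expression filter (minimum count of 10), quasi-likelihood F-test with robust dispersions, and Benjamini-Hochberg adjustment over all genes tested, called under 0.05. The treatment was fitted alone over 14 libraries, with library class (over or under 20000000 counts) as a term, by class, and over the 11 shallower libraries. SEs were obtained from the log2 fold change and the square root of F. CPM are counts per 1000000 of the TMM-scaled library size. Named genes were all mitochondrial protein-coding and long features, the short features of highest level or called in any fit, and, for each nuclear list, members called over all 14 libraries, up to 4 of smallest p and, where measured, Tfam, Polrmt, Tfb2m, Lrpprc, Slirp, Polg, Twnk and Ppargc1a. Alternatives were other scalings and filters, DESeq2 1.42.0, limma 3.58.1 (voom with sample weights, and log2(RPKM + 1 or 0.1)), a replicate block and leaving out each library. The edgeR fit of treatment alone was tested on simulated counts. These held no difference between library classes, so they do not test the fits with library class. No 2 libraries of a group agreed within sampling noise (42 pairs, chi-square at least 11.2 per degree of freedom). Shared replicate numbers did not pair the samples. No mitochondrial sequence was printed.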

Additional observations from a re-analysis of the deposited data

Results flagged for a closer look

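Among 50 sets of 7 libraries tested for a value far from the rest (Dixon's test at the 95% level), 17 held one. Chance gives about 1 in 20 for separate tests, but many of the 50 sets are related measures of the same 14 libraries. The 17 are therefore not separate results, and their number is no test against chance. DC371739 replicate 7, the only deeper library of its group, was the one that stood apart in 15 of the 17. Its mitochondrial share was 14.4% of all counts, against 8.63% in the next library. Its level was the highest of its group for ND1 (12064 CPM), ND2 (14335), ND4L (1565), ND4 (10695), ND5 (11948) and ND6 (2495 CPM). The same held for COX1 (50218 CPM), COX2 (7702), COX3 (12901), CYTB (10619.9), ATP6 (15135) and the 67-base feature at 15333 to 15399 (213 CPM). Its ratio of ATP8 to ATP6 was the lowest of its group, at 0.0947 per kilobase, and its ratio of ND5 to ND1 the highest, at 0.519. In the control group, which holds both other deeper libraries, no single library stood apart in these measures.

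The other 2 values came from shallower libraries. ATP8 was 543 CPM in DC371739 replicate 4, against 464 CPM in the next library. The short features held 0.208% of the mitochondrial counts in control replicate 4, against 0.179% in the next.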

How the results depend on the processing

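Over all 14 libraries the treatment call was 0 of 23 mitochondrial features with every other scaling, 0 of 36 with no filter, 0 of 19 with a filter of 1 CPM, and 0 of 23 with DESeq2 and limma on log2 RPKM, but it was 3 with limma-voom, and 4 with the library class term or with the shallower libraries alone. These 4 were ND4L, ND5 and the short features at 5072 to 5142 and at 6856 to 6924 in both. Leaving out 1 library gave 0 to 1, the 1 without control replicate 7, where 542 of all 12234 genes tested were called. With the class term the count was 1 to 5 when 1 library was left out: 1 if control replicate 5 was dropped, and 2 for control replicates 3 and 4 and DC371739 replicates 2 and 3 in turn. Over the shallower libraries it was 3 to 5; ND4L, ND5 and the short feature at 5072 to 5142 were called without any 1 of the 11. The one at 6856 to 6924 passed the filter on low counts only through treated libraries, and in 6 of the 11 fits. For the deeper libraries the 18 became 9 when scaled to the summed mitochondrial counts, which moves the median of all genes to -0.89, and 15 to 19 without 1 library (15 without control replicate 7); it was 22 of 36 with no filter and 14 of 19 with the 1 CPM filter. With library size alone as scaling the median of all genes moved to -0.14 and ATP8 was called lower in the deeper libraries (-0.38, edgeR adjusted p 0.00863), as it was with limma-voom (-0.30, adjusted p 0.0319). Of all genes, 225 were called for the treatment, 2 with mitochondrial scaling, 840 with DESeq2, 2727 with limma-voom and 25 to 1069 without 1 library (25 without DC371739 replicate 3 or 6, 1069 without DC371739 replicate 7). Leaving out libraries and mitochondrial scaling in the class-term and shallower fits were chosen after seeing the data.

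The mitochondrial share differed between treatment groups by -0.29 percentage points, and by -1.19 to 0.35 without 1 library. Between library classes the share differed by 5.32 percentage points, 4.81 to 5.74 without 1 library. The share of the long unnamed features in mitochondrial counts differed by 0.04 points between treatment groups, -0.02 to 0.11 without 1 library. Of the 89 nuclear genes of mitochondrial gene expression, 0 called over all 14 libraries became 1 with library size and TMM from nuclear genes, 1 with a filter of 1 CPM in 7 libraries, 8 with DESeq2, 18 with limma-voom, 4 with log2(RPKM + 1), 4 with log2(RPKM + 0.1), 18 in the shallower libraries and 14 with the class term; without 1 library it was 0 to 9 (4 without control replicate 7, 1 without DC371739 replicate 4, 9 without DC371739 replicate 7).

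The replicate numbers do not pair the samples: 2 of the 7 same-numbered pairs had correlated deviations over 0.1 (range -0.13 to 0.55), and 1 of 7 control libraries correlated best with its own number. With a replicate block 0 of 23 mitochondrial features were called and 8 of all genes, against 225 without it; ND4 then gave 0.028.

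Treatment differences near 0 changed sign between settings, none of them called. In the shallower libraries the log2 differences became 0.022 for COX1, 0.050 for COX2, 0.059 for COX3, 0.058 for CYTB, 0.19 for ND4, 0.090 for the 955-base and 0.017 for the 1562-base feature. With the class term they were 0.024 (COX1), 0.043 (COX2), 0.058 (COX3), 0.065 (CYTB), 0.18 (ND4), 0.0010 (ND6) and 0.026 (955-base). Limma-voom gave 0.0053 (COX2), 0.023 (COX3), 0.0032 (CYTB), 0.14 (ND4), 0.0059 (1562-base) and 0.036 (955-base). Library size alone gave 0.011 (1562-base), 0.025 (955-base) and 0.027 (ND4), and upper-quartile scaling 0.0019, 0.013 and 0.0078 for the same. ND4 was 0.025 with either RPKM pseudocount. Scaled to mitochondrial counts, COX3 gave 0.0044, the 1562-base feature 0.047, the 955-base feature 0.083 and ND4 0.088. Without 1 library the ranges were -0.33 to 0.0035 for COX1, -0.26 to 0.027 for COX2, -0.25 to 0.040 for COX3, -0.31 to 0.056 for CYTB, -0.097 to 0.18 for ND1, -0.24 to 0.17 for ND4, -0.055 to 0.54 for ND4L, -0.26 to 0.36 for ND5, -0.22 to 0.0015 for ND6, -0.081 to 0.071 for the 955-base feature and -0.075 to 0.0073 for the 1562-base feature.

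Between library classes the signs that changed did so with mitochondrial scaling: -0.098 for ATP6, -0.016 for COX2, -0.026 for COX3, -0.11 for ND1, -0.46 for ND2, -0.27 for ND6, -0.68 for the 955-base feature, -0.75 for the 1562-base feature, -0.063 for the feature at 15333 to 15399 and -0.44 for the feature at 5072 to 5142. Library size alone gave -0.0096 for the 1562-base feature. The causes were not tested.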
